A study of Mus musculus with 17 samples.

Results

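The Krüppel-like factor genes Klf2, Klf3, Klf4, Klf6, Klf7, Klf9, Klf10, Klf12, Klf13 and Klf15 were followed in ventricular cardiomyocytes of mice labelled MBNL1 loss-of-function (KO) or control (WT) while transcription was blocked. The genes were chosen by name, with earlier results of these data known, and are 10 of the 55487 genes in the count table. All 10 were among the 13230 genes with enough counts to be tested. The genes the results turn on most are Klf2 (ENSMUSG00000055148, chr8:72319033-72321656, forward strand of GRCm38), Klf15 (ENSMUSG00000030087, chr6:90462576-90475238, forward), Klf9 (ENSMUSG00000033863, chr19:23141226-23168134, forward) and Klf10 (ENSMUSG00000037465, chr15:38291463-38300706, reverse). Krüppel-like factors are transcription factors with zinc fingers at the C-terminal end that bind GC-rich and CACCC sequences. Several are immediate early genes, whose transcripts are made quickly after a stimulus and decay quickly, while others are held at steady levels by hormones. In the heart, KLF15 is known as a glucocorticoid-induced regulator of lipid and amino acid use and a brake on hypertrophy, and KLF2 and KLF4 are best known as flow-responsive factors of the endothelium.

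MBNL1, muscleblind-like 1, is an RNA-binding protein that acts on splicing, localisation and turnover of transcripts, and the study asked which transcripts differ in stability without it. Myocytes of 60-day-old mice were isolated by perfusion of the heart with a protease blend and kept on laminin-coated plates for 3 h, and actinomycin D was then added at 2 µg/mL. It is an intercalator that stops RNA synthesis. There were 3 KO libraries each at 0, 4 and 8 h, 3 WT libraries each at 0 and 8 h, and 2 WT libraries at 4 h, or 17 in all, with no actinomycin D at 0 h. The labels do not say how the KO was made, which part of Mbnl1 was changed, or whether replicates came from separate animals, so p-values measure only the spread between these samples, which may be technical.

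Library totals ran from 17059736 to 17971617 counts, 35.1 to 43.3% of them from mitochondrially encoded genes, and the 10 Klf genes together held 0.0111 to 0.0245% of a library. Levels are given as CPM, counts normalised to library size after scaling by trimmed mean of M-values (TMM), so every change is a change in a transcript's share of the library. Mbnl1 had 100 ± 5.36 CPM in KO and 87.5 ± 1.30 CPM in WT at 0 h (SD, n = 3 each), and it was called higher in the libraries labelled KO at 0, 4 and 8 h with TMM, by log2 fold changes of 0.19, 0.14 and 0.26 (edgeR adjusted p = 0.000811, 0.0329 and 2.13e-05). Scaled to ribosomal protein genes, these were -0.13, -0.22 and 0.20, with the 4 h value called lower and the 8 h value called higher. A partial deletion can leave a gene's total count as it was, and the genotype is therefore not checked by this gene. Esr1, the oestrogen receptor alpha gene, had 36443 to 46057 counts in each KO library and 0 to 57 in each WT library. Markers of cardiomyocytes were abundant in every group, at a summed 34260 to 61640 CPM over 10 genes, but markers of other cell types were also present, and their values stand beside the results below.

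Transcripts that decay quickly often carry AU-rich letters in the 3′ UTR, and the heptamer TATTTAT is a common form of this element. For each gene the 3′ UTR searched in GENCODE M21 (GRCm38) was the longest among coding transcripts marked principal. Where no transcript was so marked, it was the longest among the basic coding transcripts. In this UTR, 4 of the 10 Klf genes held the heptamer: Klf2, Klf7 and Klf10 once each and Klf6 at 2 places. The 30-base windows around them are shown because these 4 genes were among the 5 that fell furthest in WT. In KO this did not hold. Klf4 (-1.83) and Klf3 (-1.14), without the heptamer, fell further there by 8 h on the log2 scale than Klf7 (-0.86). The heptamer is in capitals and each sequence is on the strand of the transcript.
Klf2 3′ UTR, chr8:72320988-72321017, forward strand: aaacagactgcTATTTATtggaccttagga
Klf6 3′ UTR, chr13:5868490-5868519, forward strand: gctacgtctctTATTTATgccttgaggact
Klf6 3′ UTR, chr13:5868943-5868972, forward strand: cacaccggctgTATTTATtatgtaacattg
Klf7 3′ UTR, chr1:64029783-64029812, reverse strand: gccttctctggTATTTATaatatatcacag
Klf10 3′ UTR, chr15:38294919-38294948, reverse strand: cagtgtcttttTATTTATaggagtttttca

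No TATTTAT was found in the 3′ UTRs searched for Klf3, Klf4, Klf9, Klf12, Klf13 and Klf15, and UTRs of other transcripts were not searched. Of the 11987 tested genes with an annotated 3′ UTR, 29.0% held the heptamer, with 12.4% of those with UTRs under 1000 bases and 44.2% of those at or over 1000 bases. Klf2 held its copy in a UTR of 737 bases, against 6266 bases in Klf7, 3111 in Klf6 and 1492 in Klf10. The pentamer ATTTA was present in all 10 members, as in 68.3% of tested genes. The longer TTATTTATT was in none of the 10, as against 7.5% of tested genes. MBNL proteins are known to bind YGCY tetramers, with Y for C or T, and these occurred at 6.70 per kb in Klf10 to 16.8 per kb in Klf15, around a median of 12.6 per kb over tested genes. Letters in an annotated UTR are a description and do not show that any protein binds there.

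Promoter letters are shown for Klf2 and Klf15, the members with the largest differences between KO and WT in each direction at 8 h. The windows hold 250 bases before and 50 after the annotated start, from RefSeq on GRCm38.p6, which gave a window for 9 of the 10 members, Klf10 not among them. Capitals mark GGGCGG (a GC box), CACCC (the core of a KLF site), CACGTG (an E-box) and CTANNNNTAG. The last is a loose form of the core of a MEF2 site, with N for any base. Both strands were searched, so that CCGCCC and GGGTG are the same GC box and CACCC site read from the other strand.
Klf2 promoter, chr8:72318812-72319111, forward strand: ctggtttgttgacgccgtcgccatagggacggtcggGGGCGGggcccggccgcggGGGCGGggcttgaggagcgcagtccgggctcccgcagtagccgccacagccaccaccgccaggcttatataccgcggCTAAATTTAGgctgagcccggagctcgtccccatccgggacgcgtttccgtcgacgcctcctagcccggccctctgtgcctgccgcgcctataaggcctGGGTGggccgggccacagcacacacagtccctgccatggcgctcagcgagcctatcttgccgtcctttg
Klf15 promoter, chr6:90462326-90462625, forward strand: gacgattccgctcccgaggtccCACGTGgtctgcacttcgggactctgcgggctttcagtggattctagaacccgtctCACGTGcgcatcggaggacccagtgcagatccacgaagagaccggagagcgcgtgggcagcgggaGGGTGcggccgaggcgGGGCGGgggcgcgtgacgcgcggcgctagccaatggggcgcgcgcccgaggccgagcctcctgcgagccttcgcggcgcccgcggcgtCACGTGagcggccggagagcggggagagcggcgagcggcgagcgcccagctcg

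The Klf2 window held 2 GC boxes, 1 CACCC and 1 CTANNNNTAG, and MEF2 factors are known to drive Klf2 in endothelium. Among 32851 promoter windows, 3.7% held CTANNNNTAG and 19.5% held 2 or more GC boxes. The Klf15 window held 3 E-boxes, 1 GC box and 1 CACCC. An E-box was present in 7.2% of windows, and 0.09% held 3 or more.

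Klf15 and Klf9 are both induced by glucocorticoids and were the most abundant members in every group. Per kilobase of exon, Klf9 averaged 17.8 CPM in KO and 15.2 in WT at 0 h, and Klf15 averaged 13.2 in KO and 8.77 in WT. The next member stood at 4.06 CPM per kb in KO (Klf4) and 5.05 in WT (Klf2). In KO at 0 h the order was then Klf4, Klf2 and Klf6, whose neighbours overlapped between libraries, followed by Klf13, Klf10, Klf3, Klf12 and Klf7. By 8 h Klf2 had gone to the last place in KO, at 0.561 CPM per kb, where Klf10 (0.564) overlapped with it, while in WT it stood at 1.43 CPM per kb.

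**Figure D1:**
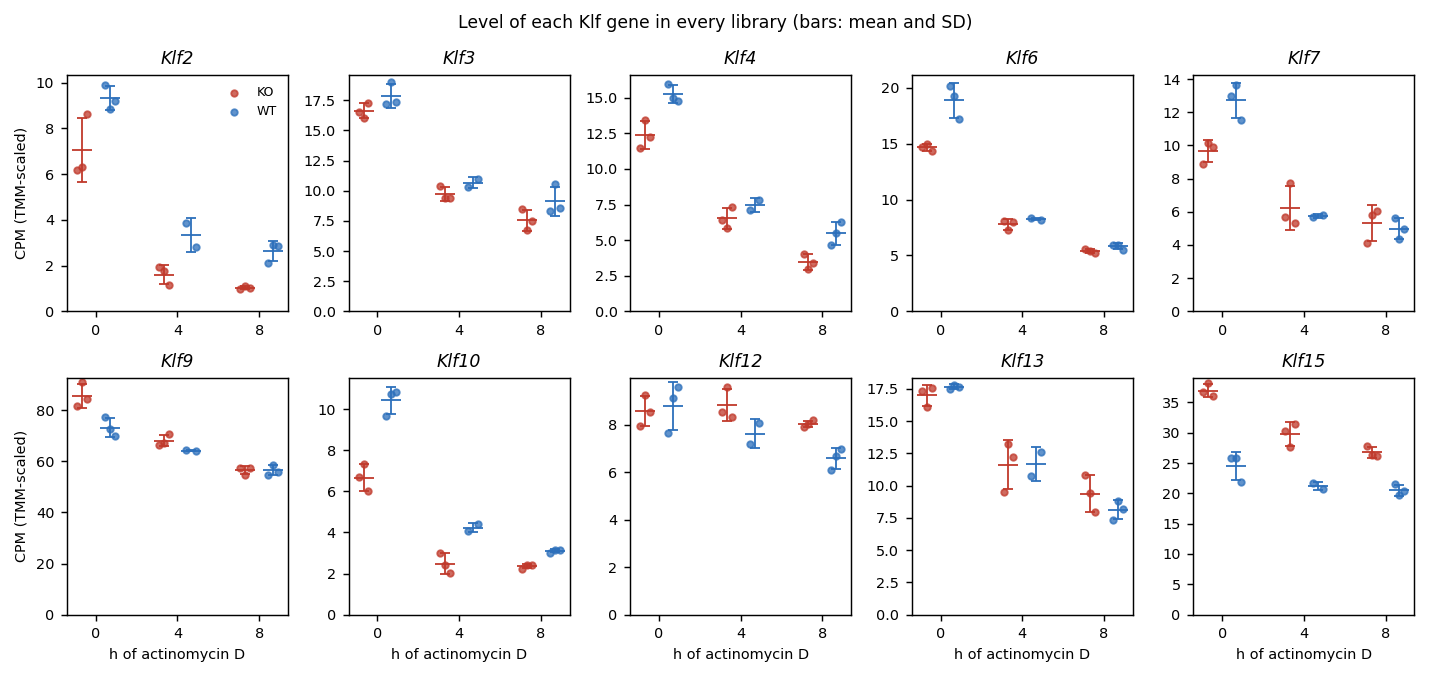
Level of the 10 Klf genes in every library, in TMM-scaled CPM against hours of actinomycin D, with KO (red) left of WT (blue) at each time; points are libraries and bars are the mean and SD (n = 3, or 2 for WT at 4 h). Klf15 lies higher in KO at every time, Klf2 lower in KO at every time, and Klf12 in KO stays between 7.92 and 9.59 CPM.

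Before the block, 7 of the 10 members differed between KO and WT. Klf15 and Klf9 were higher in KO, and Klf2, Klf4, Klf6, Klf7 and Klf10 were lower. Over all tested genes, 18.8% were called higher and 17.9% lower in KO at 0 h at an adjusted p under 0.05 by edgeR's quasi-likelihood test. The median log2 fold change was -0.20 over the members and -0.02 over all tested genes. The split of calls over all genes depended on the scaling: 51.2% of calls were higher in KO with TMM, 14.1% when only library size was used and 5.94% with ribosomal protein scaling.

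Klf15 had 36.7, 38.1 and 36.0 CPM in the KO libraries at 0 h, against 25.8, 25.8 and 21.8 CPM in WT. Every KO library lay above every WT library. The log2 fold change was 0.60 ± 0.07 (SE, edgeR adjusted p = 3.75e-11), a 1.51-fold difference. At 4 h Klf15 had 30.2, 27.7 and 31.5 CPM in KO and 21.7 and 20.7 CPM in WT, for a log2 fold change of 0.49 ± 0.08 (edgeR adjusted p = 9.29e-07). At 8 h it had 27.7, 26.3 and 26.2 CPM in KO and 21.5, 19.7 and 20.3 CPM in WT, for 0.38 ± 0.07 (edgeR adjusted p = 2.15e-05). The groups did not overlap at any time. Cardiomyocyte markers were also higher in KO at 0 h, 7 of 10 of them with TMM and 5 (with 2 lower) with ribosomal protein scaling, with sums of 45320 to 48140 CPM in KO and 34260 to 37340 CPM in WT, and their part in this result was not tested. Over all tested genes 18.8% were called higher in KO at 0 h with TMM, and 480 of 13230 with ribosomal protein scaling. In bulk samples, fewer cells of a type and less RNA per cell cannot be told apart. With scaling to ribosomal protein genes the difference of Klf15 was 0.27 at 0 h (edgeR adjusted p = 0.00488) and 0.13 at 4 h (edgeR adjusted p = 0.246), no longer called, and with library size alone it was 0.39 at 0 h.

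Klf9, a glucocorticoid- and thyroid-hormone-responsive repressor, had 81.6, 91.0 and 84.6 CPM in KO at 0 h, against 77.2, 72.9 and 69.8 CPM in WT. The KO libraries lay above the WT libraries, with a log2 fold change of 0.23 ± 0.05 (edgeR adjusted p = 0.000345) under TMM, which became 0.02 when only library size was used and -0.10 with ribosomal protein scaling, neither of them called. Those scalings moved the median of all tested genes to -0.22 and -0.35, and relative to that median Klf9 stood 0.24 higher in KO under both. By 8 h the groups met, at 57.5, 54.8 and 57.5 CPM in KO and 54.8, 58.7 and 56.1 CPM in WT.

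Klf10, also called TGF-beta-inducible early gene 1, showed the largest difference at 0 h among the members. It had 6.71, 7.32 and 6.0 CPM in KO, against 9.70, 10.8 and 10.9 CPM in WT. All 3 KO libraries were below the WT libraries, and the log2 fold change was -0.65 ± 0.11 (SE, edgeR adjusted p = 1.96e-06). At 4 h it was -0.77 ± 0.18 (edgeR adjusted p = 0.00041), and at 8 h -0.40 ± 0.18 (edgeR adjusted p = 0.0803), which missed the threshold although the libraries did not overlap.

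Klf2, a factor of quiescent endothelium and of lymphocytes, had 6.20, 6.30 and 8.65 CPM in KO at 0 h, against 9.91, 8.87 and 9.19 CPM in WT. The highest KO library lay just under the lowest WT library. The log2 fold change was -0.40 ± 0.12 (SE, edgeR adjusted p = 0.00717), and the call was lost with DESeq2 (-0.38, adjusted p = 0.125), without KO replicate 1 (-0.31, adjusted p = 0.0734) and without KO replicate 2 (-0.33, adjusted p = 0.0621). Klf4, which shares many endothelial targets with Klf2, had 11.5, 13.4 and 12.2 CPM in KO and 16.0, 15.0 and 14.8 CPM in WT at 0 h. All KO libraries lay below the WT libraries (-0.30 ± 0.09, SE, edgeR adjusted p = 0.00653). That call was lost with DESeq2 (-0.28, adjusted p = 0.104) and without KO replicate 1 at 0 h (-0.25, adjusted p = 0.0574). Of 15 endothelial markers, 12 were lower and 1 higher in KO at 0 h, with sums of 246.7 to 285.9 CPM in KO and 341.6 to 357.1 CPM in WT, and their part in the lower Klf2, Klf4 and Klf6 was not tested.

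Klf6, an immediate early gene induced by injury, had 14.7, 15.0 and 14.3 CPM in KO at 0 h, against 20.2, 19.3 and 17.2 CPM in WT. Klf7, a close relative of it, had 8.90, 10.1 and 9.92 CPM in KO and 13, 13.6 and 11.5 CPM in WT. For both genes every KO library lay below every WT library. Their log2 fold changes were -0.36 ± 0.08 (edgeR adjusted p = 0.000169) for Klf6 and -0.40 ± 0.11 (edgeR adjusted p = 0.00191) for Klf7. The repressors Klf3 and Klf12, which recruit the corepressor CtBP, and Klf13, which recruits Sin3, overlapped between KO and WT at 0 h. Their log2 fold changes were -0.10, -0.04 and -0.06 with TMM, and all of them were called lower with ribosomal protein scaling (-0.43, -0.37 and -0.39), which moved the median of all genes by a similar amount.

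**Figure D2:**
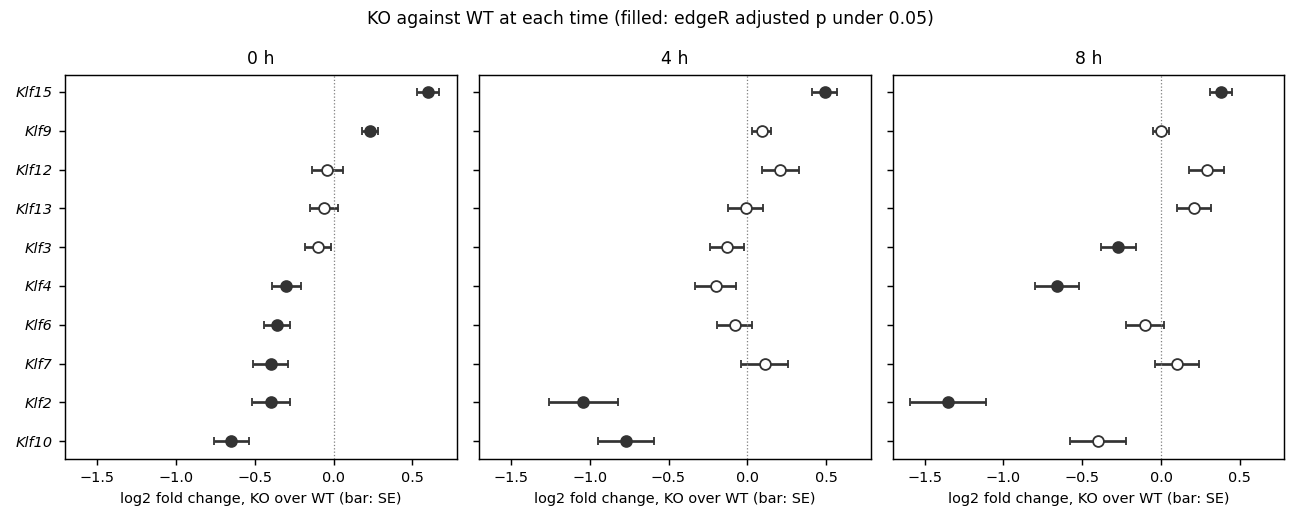
Log2 fold change of KO over WT (x axis) for each Klf gene (rows) at 0, 4 and 8 h, with the SE as bars and filled points where the edgeR adjusted p is under 0.05. At 0 h the called members lie between -0.65 (Klf10) and 0.60 (Klf15); at 8 h Klf2 stands lowest at -1.35.

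The same comparison was made during the block. At 4 h 3 of 10 were called, Klf15 higher and Klf2 and Klf10 lower in KO, against 14.6% of tested genes called higher and 17.4% called lower. At 8 h 4 of 10 were called, Klf15 higher and Klf2, Klf4 and Klf3 lower, against 13.9% called higher and 13.7% called lower. With ribosomal protein scaling 7 members were called at 4 h, when 333 of the 13230 tested genes were called higher in KO and 7431 lower. Of all calls, 45.7% were higher in KO at 4 h and 50.4% at 8 h with TMM, beside 34.7% and 23.8% by library size alone, and 4.29% and 34.1% with ribosomal protein scaling.

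Klf2 differed most. It had 1.93, 1.75 and 1.13 CPM in KO at 4 h, against 3.85 and 2.80 CPM in WT. At 8 h it had 0.967, 1.12 and 1.02 CPM in KO, against 2.13, 2.92 and 2.87 CPM in WT. Each KO library was below each WT library at both times, although the counts behind these values were low, at 16 to 18 per library in KO and 36 to 51 in WT at 8 h. The log2 fold change was -1.04 ± 0.22 (SE, edgeR adjusted p = 0.000154) at 4 h and -1.35 ± 0.24 (edgeR adjusted p = 7.24e-06) at 8 h, when the KO level was 39.3% of the WT level.

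Klf4 at 8 h had 4.05, 2.98 and 3.37 CPM in KO, against 4.68, 5.49 and 6.27 CPM in WT. The libraries did not overlap, and the log2 fold change was -0.66 ± 0.14 (edgeR adjusted p = 0.000239), after -0.20 ± 0.13 (adjusted p = 0.265) at 4 h. Klf3 at 8 h had 8.46, 6.71 and 7.45 CPM in KO and 8.29, 10.5 and 8.55 CPM in WT. Its libraries overlapped, and its call (-0.27 ± 0.11, edgeR adjusted p = 0.0474) held in 10 of 26 alternative analyses. Klf12 at 8 h had 7.92, 8.02 and 8.18 CPM in KO and 6.10, 6.69 and 6.97 CPM in WT, with no overlap, and a log2 fold change of 0.29 ± 0.11 that missed the threshold (edgeR adjusted p = 0.0514). The other members, Klf6, Klf7, Klf9, Klf10 and Klf13, lay between -0.40 and 0.21 at 8 h and were not called.

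With transcription blocked, nearly every member fell. From 0 h to 8 h 9 of 10 fell in KO, all but Klf12, and 10 of 10 fell in WT. Over all tested genes 23.2% were called lower in KO and 26.8% in WT at 8 h against 0 h. The median log2 fold change of the members was -1.0 in KO and -1.24 in WT, beside -0.02 and -0.03 for all tested genes. By 4 h 9 members had already fallen in each genotype, Klf12 being the exception in both, against 13.5% of tested genes called lower in KO and 12.6% in WT. Of all calls at 8 h against 0 h, 48.0% were higher in KO and 48.3% in WT with TMM. By library size alone these were 27.3% in KO and 17.8% in WT, and with ribosomal protein scaling 0.34% in KO and 0.442% in WT.

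Klf2 fell furthest in both genotypes. At 8 h it stood at 14.8% of its 0 h level in KO (log2 fold change -2.76 ± 0.20, SE) and at 28.4% in WT (-1.81 ± 0.15). At 4 h it stood at 22.9% in KO and 35.7% in WT, so most of the fall came in the first 4 h. Klf10 had 2.24, 2.42 and 2.40 CPM in KO at 8 h and 3.02, 3.15 and 3.16 CPM in WT, which was 35.4% of the 0 h level in KO and 29.8% in WT. Klf6 had 5.62, 5.41 and 5.23 CPM in KO and 5.98, 5.95 and 5.51 CPM in WT at 8 h, which was 37.0% and 30.9% of its level at 0 h. Klf4 stood at 28.1% in KO and 36.0% in WT.

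The middle of the range held Klf3, Klf7 and Klf13. Klf3 stood at 45.4% of its 0 h level in KO and 51.1% in WT. Klf7 stood at 55.2% in KO and 39.2% in WT, with 4.11, 5.78 and 6.07 CPM in KO and 5.62, 4.35 and 4.98 CPM in WT at 8 h. Klf13 stood at 55.2% in KO and 46.0% in WT. In all 3 genes the libraries at 8 h lay below those at 0 h in both genotypes.

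Klf9, Klf15 and Klf12 fell least. Klf9 stood at 66.0% in KO (-0.60 ± 0.05) and 77.1% in WT (-0.37 ± 0.05), and Klf15 at 72.4% in KO (-0.47 ± 0.07) and 83.9% in WT (-0.25 ± 0.07). With ribosomal protein scaling, which moved the median of all genes to -0.41 in KO and -0.69 in WT, the changes were -0.99 in KO and -1.04 in WT for Klf9 and -0.86 in KO and -0.92 in WT for Klf15. Klf12 had 7.94, 9.24 and 8.54 CPM at 0 h, 8.52, 9.59 and 8.33 CPM at 4 h and 7.92, 8.02 and 8.18 CPM at 8 h in KO, a change of -0.09 ± 0.11 by 8 h (edgeR adjusted p = 0.524). In WT Klf12 fell to 74.9% of its level by 8 h (-0.42 ± 0.11, edgeR adjusted p = 0.000857). Under the same scaling Klf12 changed by -1.08 in WT, and its change in KO was called as well (-0.48, edgeR adjusted p = 0.000352).

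Between 4 and 8 h 4 members were called lower in each genotype. These were Klf3, Klf4, Klf6 and Klf9 in KO, where 3.82% of tested genes were called lower, and Klf4, Klf6, Klf9 and Klf13 in WT, where 9.55% were. Klf4 showed the largest of these changes in KO, at -0.91 ± 0.14 (edgeR adjusted p = 5.17e-06), against -0.45 ± 0.13 (edgeR adjusted p = 0.0128) in WT. Klf2 in KO had -0.63 ± 0.27 with no overlap between libraries, but it was not called (edgeR adjusted p = 0.134). An edgeR unadjusted p under 0.05 was reached by 7 members in KO and 6 in WT. Many other genes reached it too. The highest of these member p-values ranked 2229 of the 13230 tested genes in KO (Klf15, 0.0271) and 3968 in WT (Klf3, 0.049). Klf10 stood at 94.8% of its 4 h level in KO at 8 h (-0.08 ± 0.18, adjusted p = 0.863) and at 73.4% in WT (-0.45 ± 0.17, adjusted p = 0.0555). The counts of called members depended on the scaling, with 8 called in KO and 10 in WT under ribosomal protein scaling. That scaling called 2166 of the 13230 tested genes lower in KO and 9342 in WT. With DESeq2 the counts of called members were 1 and 2, and it gave no adjusted p for 8 of the members in KO.

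**Figure D3:**
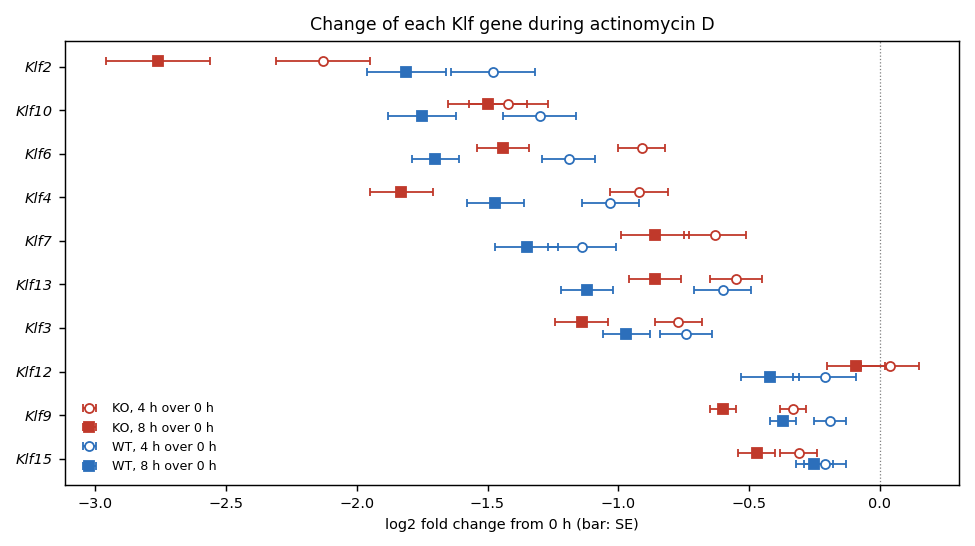
Log2 fold change from 0 h (x axis, with SE) for each Klf gene at 4 h (open circles) and 8 h (filled squares), KO in red above WT in blue. Klf2 reaches -2.76 in KO and -1.81 in WT by 8 h, while Klf12 in KO stays at -0.09.

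The 4 members with the heptamer lay between -1.35 and -1.81 in WT at 8 h, and the 6 without it between -0.25 and -1.47. In KO the ranges were -0.86 to -2.76 with the heptamer and -0.09 to -1.83 without it. Klf4, which has no TATTTAT in the UTR searched, had a lower value than Klf7 in WT and than Klf6, Klf7 and Klf10 in KO. The ranges with and without the heptamer overlapped in both genotypes.

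**Figure D4:**
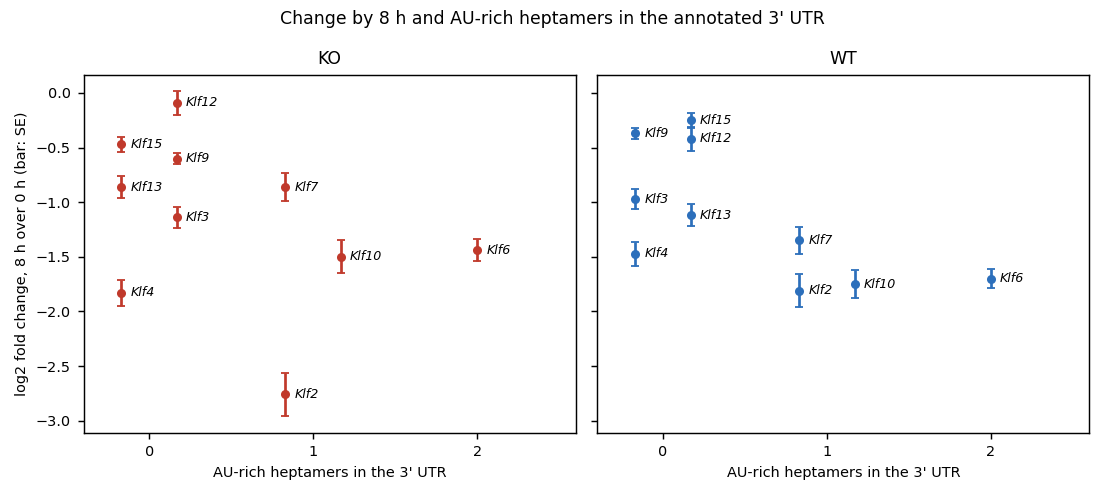
Log2 fold change at 8 h over 0 h (y axis, with SE) against the number of TATTTAT heptamers in the annotated 3′ UTR (x axis) for each Klf gene, KO left and WT right; points with the same number are spread sideways. In WT the members with 1 or 2 heptamers lie between -1.35 and -1.81, and Klf4 at -1.47 falls within that range with none.

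Whether the fall itself differed between genotypes was tested as an interaction, the change from 0 h in KO minus that in WT. At 4 h 0 of 10 members were called by edgeR, against 0.348% of tested genes, and DESeq2 called 0 as well. An unadjusted edgeR p under 0.05 was reached by 3 members (Klf2, Klf6 and Klf7). The highest of these, 0.0479 for Klf6, ranked 1164 of the 13230 tested genes by p. The values at 4 h lay between -0.64 (Klf2, edgeR adjusted p = 0.402) and 0.51 (Klf7, edgeR adjusted p = 0.331). At 8 h 6 members had an unadjusted edgeR p under 0.05. The highest of these, 0.0392 for Klf4, ranked 2193 of the 13230 tested genes by p. At the adjusted threshold 1 member was called, Klf2, against 5.2% of tested genes. Its change was 0.95 lower in KO than in WT on the log2 scale (-0.95 ± 0.27, SE, edgeR adjusted p = 0.0262). The call held in 17 of 26 alternatives, over which the value ran from -1.08 to -0.67. It was lost without KO replicate 3 at 0 h (-0.77, adjusted p = 0.107), without any one of the 3 KO replicates at 8 h (-1.0 to -0.90), and without WT replicate 2 or 3 at 8 h (-0.87 and -0.88), by library size alone (-0.84, adjusted p = 0.051), when ribosomal protein genes set the scale (-0.67, adjusted p = 0.0692) and with limma on the deposited ratios (-0.90, adjusted p = 0.595). DESeq2 gave it no adjusted p. Klf7 moved the other way, with an interaction of 0.49 ± 0.18 that did not pass (edgeR adjusted p = 0.1), and Klf9 had -0.22 ± 0.08 (adjusted p = 0.0685).

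The genes whose levels were most like each member over the 17 libraries were ranked by Pearson correlation of log2 CPM, as a description in which the libraries share 6 groups. The correlations therefore include the differences between groups, and for these gene pairs they were not computed within groups. Klf4 and Klf6 had the endothelial receptor gene Kdr among their 3 nearest, at r = 0.975 and 0.989, and Klf3 and Klf4 had the endothelial phosphatase gene Ptprb, at 0.972 and 0.971. Klf2 had Dlc1 (0.977), Rhob (0.973) and Rrad (0.972). Klf10 had Bhlhe40 (0.971), Cxcl12 (0.971) and Fosl2 (0.968), while Klf15 had Resf1 (0.958), Tmem164 (0.953) and Sesn1 (0.949). The other lists were led by Slfn5 for Klf6 (0.992), Rel for Klf3 (0.973), Amd1 for Klf9 (0.957), Ip6k1 for Klf13 (0.959), Myh9 for Klf7 (0.958) and Josd1 for Klf12 (0.871), the lowest of these.

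Several lists of markers of other cell types fell during the block. Over all tested genes 23.2% were called lower in KO and 26.8% in WT from 0 to 8 h. In KO against WT, 18.8% were called higher and 17.9% lower at 0 h, and 13.9% and 13.7% at 8 h. From 0 to 8 h all 9 tested fibroblast genes were called lower in each genotype, with median log2 fold changes of -1.09 in KO and -1.22 in WT. Of 12 macrophage and leukocyte genes, 8 were called lower in KO and 12 in WT, with medians of -0.73 and -2.41. The 15 endothelial markers, none of them at 0 in any group, all fell from 0 to 8 h in each genotype, to sums of 67.8 to 74.5 CPM in KO and 74.2 to 77.6 CPM in WT at 8 h. At 8 h 5 of them were lower and 2 higher in KO, and their part in the fall and the 8 h difference of Klf2 and Klf4 was not tested. The 12 macrophage and leukocyte markers, none at 0, summed to 35.7 to 39.7 CPM in KO and 84.4 to 98.9 CPM in WT at 0 h, with 11 of 12 lower in KO. At 8 h they summed to 23.1 to 27.8 CPM in KO and 16.8 to 19.7 CPM in WT, with 5 higher and 0 lower in KO. The fibroblast list summed to 40.3 to 44.5 CPM in KO and 75 to 78.5 CPM in WT at 0 h, with 8 of 9 tested genes lower in KO. At 8 h it summed to 25.3 to 27.8 CPM in KO, where 1 gene was at 0, and 42.1 to 49.1 CPM in WT. Of its tested genes, 6 were lower and 0 higher in KO at 8 h. The pericyte and smooth muscle list, with none of its 9 genes at 0, summed to 441.9 to 470.2 CPM in KO and 544.9 to 568.9 CPM in WT at 0 h, and to 556 to 606 CPM in KO and 538.8 to 639.3 CPM in WT at 8 h. From 0 to 8 h 2 of its 8 tested genes rose and 5 fell in KO, and 2 rose and 6 fell in WT, with TMM. With ribosomal protein scaling 0 rose in either genotype, and 6 fell in KO and 8 in WT. Of the 13230 tested genes, that scaling called 8215 lower in KO and 11267 in WT.

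**Figure D5:**
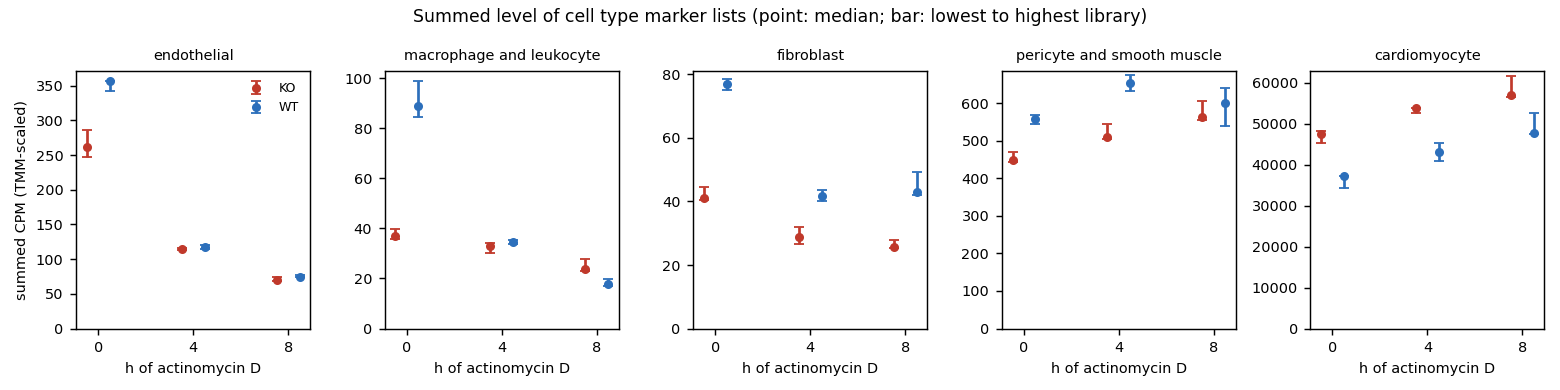
Summed CPM of each marker list (y axis) against hours of actinomycin D, KO (red) left of WT (blue); points are medians over libraries and bars run from the lowest to the highest library. The endothelial sum is 246.7 to 285.9 in KO and 341.6 to 357.1 in WT at 0 h and 113.5 to 116 in KO and 114.8 to 120.7 in WT at 4 h.

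The other KLF and Sp factors, which bind similar GC-rich sites, gave 6 testable genes of 16; the rest (Klf1, Klf5, Klf8, Klf14, Klf17 and Sp5 to Sp9) had too few counts. At 0 h Sp2 (0.40 ± 0.15) and Sp3 (0.22 ± 0.07) were called higher in KO by edgeR, though under ribosomal protein scaling they were 0.07 and -0.11 and not called, and Klf11 was lower (-0.48 ± 0.19, adjusted p = 0.035). By 8 h 4 of 6 fell in KO and 5 of 6 in WT, against 23.2% and 26.8% of all tested genes. Sp3, a ubiquitous activator and repressor, fell furthest, by 1.35 on the log2 scale in KO and by 1.08 in WT. Klf11, close kin of Klf10, fell by 0.55 in KO and by 0.99 in WT, and Sp2 did not pass in either genotype (0.15 in KO and 0.25 in WT).

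Genes that lie around the Klf genes in known pathways were counted by list. Of 9 genes of the glucocorticoid receptor axis, 2 were higher and 4 lower in KO at 0 h. Over all tested genes the shares were 18.8% and 17.9%. Fkbp5, the chaperone gene that glucocorticoids induce, was 2.18 ± 0.12 higher on the log2 scale and Zbtb16 0.73 ± 0.07 higher, while Dusp1, a phosphatase of MAP kinases, was lower (-0.75 ± 0.06). By 8 h 7 of the 9 listed genes fell in KO and 6 in WT, against 23.2% and 26.8% of all tested genes. Sgk1 was at -2.14 in KO and -2.06 in WT on the log2 scale.

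Of 12 known or proposed KLF15 targets in heart, muscle and liver, 3 were higher and 2 lower in KO at 0 h. These counts were near the 18.8% higher and 17.9% lower over all tested genes, and the median was 0.02 over the list. Pdk4, which holds back glucose oxidation, was lower (-0.47 ± 0.04), and Dbt and Kcnip2, a branched-chain amino acid enzyme and a potassium channel subunit, were higher (0.19 ± 0.05 and 0.17 ± 0.04) with TMM. With ribosomal protein scaling Dbt was -0.14 and not called and Kcnip2 was -0.16 and called lower. From 0 to 8 h 21.4% of all tested genes were called higher in KO and 25% in WT with TMM. Of the list, 11 of 12 were higher at 8 h in KO and 10 of 12 in WT, among them Acadm (0.38 in KO and 0.56 in WT). However, ribosomal protein scaling called 0 of the list higher in either genotype, and 5 lower in KO and 10 lower in WT. Of the 13230 tested genes, that scaling called 8215 lower in KO and 11267 in WT.

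The MEK5-ERK5-MEF2 arm that drives Klf2 and Klf4 in endothelium had 1 of 7 genes called at 0 h, Mef2d lower (-0.25 ± 0.05), against the 18.8% higher and 17.9% lower over all tested genes. With ribosomal protein scaling 6 of the 7 were called lower at 0 h, as were 7605 of the 13230 tested genes. At 8 h 2 were higher and 1 lower in KO, against 13.9% and 13.7% of all tested genes. Map3k2, which starts this arm, fell to 75.8% of its 0 h level in KO and to 54.9% in WT by 8 h, with an interaction of 0.47 ± 0.13 (edgeR adjusted p = 0.0195). Among 9 endothelial targets of KLF2 and KLF4, 2 were higher and 5 lower in KO at 0 h, beside the 18.8% and 17.9%. Cxcl12 was lower (-0.88 ± 0.07) and Sele, a leukocyte adhesion gene, higher (1.63 ± 0.22). At 8 h Thbd was lower (-0.83 ± 0.13) and S1pr1 higher (1.0 ± 0.11) in KO. By 8 h 7 of the 9 had fallen in each genotype, led by Nos3 (-2.37 in KO and -2.64 in WT). Over all tested genes 23.2% were called lower in KO and 26.8% in WT.

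Of 7 testable TGF-beta early response genes, 6 had fallen in KO and 3 in WT by 8 h. Over all tested genes 23.2% were called lower in KO and 26.8% in WT. Smad7 was at -2.15 in KO and -1.49 in WT on the log2 scale. Of 14 corepressor and coactivator genes that KLF proteins recruit, 7 were higher and 0 lower in KO at 0 h with TMM. Over all tested genes the shares were 18.8% and 17.9%. With ribosomal protein scaling 0 of the list were higher and 5 lower, against 480 and 7605 of the 13230 tested genes. Sin3b, a scaffold of histone deacetylase complexes, was 0.50 ± 0.07 higher with TMM and 0.17 with ribosomal protein scaling, where it was not called.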

How the data were processed

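RNA from 17 samples of isolated cardiomyocytes was sequenced, and the authors deposited a table of read counts per gene and a table of ratios per gene, in which values after actinomycin D are set against 0 h. Per the submitters' processing notes, the tools were STAR, featureCounts, limma and DESeq2 and the builds mm10 and GRCm38, with no version or role stated. All gene tests used the deposited counts, filtered with filterByExpr and scaled by TMM, in edgeR 4.0.16 (R 4.3.3): 1 quasi-likelihood fit over the 6 groups, with Benjamini-Hochberg adjustment over 13230 genes and a threshold of 0.05. The interaction is the difference between genotypes in the change from 0 h. The deposited ratio values, log2-transformed with 0.01 added, were used only in limma 3.58.1 as an alternative; DESeq2 1.42.0 was another. The script was tested on simulated data.

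The members and gene lists were chosen with earlier results of these data known. Named genes were the members, the tested KLF and Sp factors, up to 2 called genes each way per list, Mbnl1, Esr1 and the 3 genes most correlated with each member (log2 CPM with a prior count of 2, mean of at least 3). Gene lists under other scalings were added after the data were seen. One gene of the TGF-beta list and that list's counts in KO against WT are not reported here. UTRs came from GENCODE M21 and promoters from RefSeq GRCm38.p6. Samples of equal replicate number had residual correlations of -0.393 to 0.314 over 40 pairs. These were not compared with pairs of unequal number, so they cannot show whether equal numbers mark paired samples. No sample pair within a group agreed within sampling noise, with a median spread of 1.27 to 3.20 times the Poisson value over 16 pairs.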

Additional observations from a re-analysis of the deposited data

Results flagged for a closer look

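The change of Klf2 from 0 to 8 h differed between genotypes by the interaction test, at -0.95 ± 0.27 on the log2 scale (SE, edgeR adjusted p = 0.0262). The call held in 17 of 26 alternatives, and Klf2 had only 16 to 18 counts per KO library at 8 h. Klf2 changed by -2.76 in KO and by -1.81 in WT. The endothelial marker list had a median change of -1.89 in KO and -2.25 in WT over the same time, and its part in the Klf2 difference was not tested.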

How the results depend on the processing

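Of 60 called member values, 48 kept their direction and call under every alternative run, 12 lost the call under at least 1, and 1 of those, Klf9 at 0 h, also changed sign (-0.10 with ribosomal protein scaling). Counts of called members moved by more than 1.5 times as follows. With ribosomal protein scaling 7 members were called in KO against WT at 4 h and 8 at 8 h against 4 h in KO. There were 10 at 8 h against 4 h in WT and 4 in the interaction at 8 h. In the same order, that scaling called 333, 4, 37 and 2888 of the 13230 tested genes higher. It called 7431, 2166, 9342 and 44 lower. With no filter on low counts the interaction at 8 h had 2. With DESeq2 the count for 8 h against 4 h in WT was 2. DESeq2 gave no adjusted p for 8 of 10 members at 8 h against 4 h in KO or for Klf2 in the interaction at 8 h, so its counts there, 1 and 0, cover only the members with one and are no lost calls; Klf2 kept its value of -0.95. Leaving out each library gave 1 to 5 for 8 h against 4 h in WT and 0 to 2 for the interaction at 8 h. For the other counts the cause was not tested.

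Apart from Klf9 at 0 h, every value that changed sign was uncalled with TMM. With ribosomal protein scaling, KO against WT at 4 h was -0.24 for Klf7, -0.27 for Klf9 (edgeR adjusted p = 0.00315) and -0.15 for Klf12, Klf9 at 8 h was -0.06, Klf12 at 4 h against 0 h in KO was -0.18, and the interactions at 8 h were 0.10 for Klf3, 0.05 for Klf9 and 0.06 for Klf15. With library size alone, KO against WT at 8 h was -0.01 for Klf7 and -0.10 for Klf9, and the interactions at 4 h were 0.13 for Klf3, 0.01 for Klf9, 0.03 for Klf10 and 0.05 for Klf15. Klf13 at 4 h was 0.02 with RLE, without mitochondrial genes, with only the compared groups and with DESeq2, and 0.03 unfiltered. The Klf3 interaction at 4 h was 0.00 without mitochondrial genes, 0.05 unfiltered and 0.04 with only the compared groups, and Klf9 at 8 h was 0.00 with the CPM filter. Over single libraries left out, KO against WT ran from -0.13 to 0.05 for Klf12 at 0 h, -0.07 to 0.22 for Klf7 at 4 h, -0.11 to 0.15 for Klf13 at 4 h, -0.01 to 0.25 for Klf7 at 8 h and -0.02 to 0.03 for Klf9 at 8 h. Likewise Klf12 at 4 h against 0 h in KO ran from -0.02 to 0.10, Klf10 at 8 h against 4 h in KO from -0.20 to 0.09, Klf15 at 8 h against 4 h in WT from -0.08 to 0.01, and the interactions at 4 h from -0.08 to 0.05 for Klf3, -0.29 to 0.00 for Klf10 and -0.05 to 0.20 for Klf13.

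With the replicate number as a block, 7 members were called in KO against WT at 0 h, 3 at 4 h and 4 at 8 h, and the count changed in none of the 11 comparisons. Klf3 at 8 h lost its call (-0.27, edgeR adjusted p = 0.054) and Klf12 at 8 h gained one (0.29, edgeR adjusted p = 0.0459). Low counts limit Klf2 most, at 16 to 18 per KO library at 8 h.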
